A study of Mus musculus with 79 samples.

Results

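The Trpc genes encode the canonical transient receptor potential channels, and 5 of them, Trpc1, Trpc4, Trpc5, Trpc6 and Trpc7, were followed in nuclei of the mouse visual cortex. They are 5 of the 55335 entries of a count table of 79 libraries, found by their symbols after the Ensembl identifiers had been matched to the GENCODE vM21 annotation. The set was chosen by the measured Trpc6 level, whose fall in transduced VIP nuclei with Kir2.1 against the mutant was already known, so the values of all 5 in that contrast are a description and carry no test. The series asked how far the neuronal activity that remains during dark housing shapes expression in the cortex, which was silenced with a virus that expresses Kir2.1.

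All mice carried 1 knock-in copy of each of 2 alleles, INTACT wt/ki and VIP Cre wt/ki. VIP Cre is active in interneurons that make vasoactive intestinal peptide (VIP), and where Cre is active INTACT puts a tag on the nucleus by which it can be sorted. At postnatal day 55 to 60 the visual cortex was injected with an adeno-associated virus (AAV), and the mice went into the dark 3 days later; every library is labelled 10 days dark housed. AAV-Syn1-Kir2.1-2a-mScarlet-KASH carries Kir2.1, an inward rectifier potassium channel that makes neurons less excitable, under the Syn1 promoter, which is active in neurons generally. The control vector has Kir2.1(Mutant) in the same construct. Transduced VIP nuclei were measured in 10 Kir2.1 and 9 mutant libraries, transduced neurons in 8 Kir2.1 and 8 mutant libraries, non-transduced VIP nuclei in 10 Kir2.1 and 9 mutant libraries, and all non-transduced nuclei in 10 Kir2.1 and 9 mutant libraries. Without AAV, also in the dark, there were 3 VIP and 3 all-nuclei libraries, all labelled male, while every AAV group held both sex labels. No group had normal light, and each library pooled 50 to 100 nuclei, so a library is a small pool and not a cell.

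Library totals ran from 3219899 to 9267246 counts (median 6170915). The labels number the libraries (BioRep), but no label says which libraries share an animal. In 22 of 22 sets of 1 vector and number the libraries shared a sex by Xist and Y-linked counts. Same-numbered libraries of a vector may therefore come from 1 animal. They were tested as unpaired, and the p-values reflect the spread from library to library, which may be partly technical. The 6 VIP markers used here (Vip, Calb2, Crh, Htr3a, Prox1 and Adarb2) summed, as counts scaled to library size (CPM), to group medians of 8075 to 17648 in VIP nuclei and 59.2 to 251 CPM in the other populations. Excitatory markers had group medians of 18.95 to 30.3 CPM in VIP nuclei and of 428 CPM in Kir2.1 and 502 CPM in mutant transduced neurons. Of the 79 libraries, 32 had a sex label that went against their Xist and Y-linked counts, and 6 correlated with their group's median profile at under 0.89. These 6 were Kir2.1 libraries 1 and 6 and mutant library 1 of transduced VIP nuclei, Kir2.1 library 9 and mutant library 1 of non-transduced VIP nuclei, and Kir2.1 library 10 of transduced neurons.

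Trpc proteins assemble as tetramers into non-selective cation channels that let calcium and sodium into the cell. They open downstream of receptors that couple through Gq proteins to phospholipase C, and in neurons they carry slow depolarising currents and calcium entry after metabotropic receptors are activated. Trpc4 and Trpc5 are close relatives and can assemble with Trpc1, which acts mainly as a partner subunit. Trpc6 and Trpc7 belong to the subgroup that is opened directly by diacylglycerol, the lipid product of phospholipase C. Opened Trpc channels depolarise a neuron, whereas Kir2.1 holds the membrane near the potassium equilibrium.

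The sequence before the transcription start is shown for the 3 members whose levels differed most between the Kir2.1 and the mutant vector, Trpc6 in VIP nuclei and Trpc4 and Trpc5 in neurons. Each line is the 250 bases before the RefSeq start on the gene's own strand (assembly GRCm38.p6), in lower case, with capitals marking TGACG or its complement CGTCA, the 5-base core of the cyclic AMP response element, which is bound by CREB, a factor regulated by neuronal activity. The Trpc6 window is chr9:8543892-8544141 on the plus strand, the Trpc4 window chr3:54155807-54156056 on the plus strand, and the Trpc5 window chrX:144688181-144688430 on the minus strand.
Trpc6: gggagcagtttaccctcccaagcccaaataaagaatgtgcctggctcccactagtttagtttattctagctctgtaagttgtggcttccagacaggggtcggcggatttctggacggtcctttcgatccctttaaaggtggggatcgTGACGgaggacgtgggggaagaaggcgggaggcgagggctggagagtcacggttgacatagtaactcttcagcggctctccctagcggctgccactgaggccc
Trpc4: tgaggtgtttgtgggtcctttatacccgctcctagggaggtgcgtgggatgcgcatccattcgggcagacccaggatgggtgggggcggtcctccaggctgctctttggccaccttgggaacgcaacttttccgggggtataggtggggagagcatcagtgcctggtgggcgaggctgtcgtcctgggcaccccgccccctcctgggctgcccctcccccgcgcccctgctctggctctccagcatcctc
Trpc5: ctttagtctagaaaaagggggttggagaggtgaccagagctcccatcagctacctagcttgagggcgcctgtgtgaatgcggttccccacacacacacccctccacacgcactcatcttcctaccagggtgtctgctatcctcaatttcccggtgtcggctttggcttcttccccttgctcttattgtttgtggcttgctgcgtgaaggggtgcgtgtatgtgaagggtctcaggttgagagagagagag

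The Trpc6 window holds 1 such core, 103 bases before the start, and the Trpc4 and Trpc5 windows hold 0. Among the other members, the window of Trpc1 holds 1, on the opposite strand and 82 bases before the start, and that of Trpc7 holds 0. On either strand the core occurs in 17.8% of the 32851 RefSeq windows of this length. The full element TGACGTCA, which contains the core, occurs in 1.55% of them, and the AP-1 motif TGANTCA, the site of Fos and Jun factors, in 6.75%; neither is in the 5 Trpc windows. The E-box CANNTG occurs in 66.2% of windows and once in that of Trpc1, in 0 of the other 4. These are matches of letters in short windows, not measured sites.

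The genes lie at chromosome 9, 8544142 to 8680741, plus strand (Trpc6), chromosome 13, 56773113 to 56895993, minus strand (Trpc7), chromosome 3, 54156035 to 54318471, plus strand (Trpc4), chromosome X, 144381671 to 144688180, minus strand (Trpc5), and chromosome 9, 95705082 to 95750375, minus strand (Trpc1), all on mm10. Trpc1, Trpc4, Trpc5 and Trpc6 had counts in all 79 libraries, and Trpc7 had counts in 73, the 6 libraries at 0 all being of all nuclei. All 5 passed the filter on low counts in every fit.

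Which Trpc gene led depended on the population once levels were divided by exon length. Per kilobase of exon, Trpc4 had the highest mean of the 5 in all VIP groups. Trpc6 had it in both groups of transduced neurons and Trpc5 in all 3 groups of all nuclei. Some leads lay within the SDs. Mutant neurons had 16.9 ± 6.39 CPM per kb of Trpc6 and 15.6 ± 4.48 of Trpc5. All nuclei with Kir2.1 had 20.7 ± 9.47 of Trpc5 and 16.9 ± 5.64 of Trpc4. In CPM not divided by length, Trpc4 had the highest mean in every group but transduced neurons with Kir2.1. Trpc4 held 44.1% of the summed level of the 5 genes in Kir2.1 and 39.4% in mutant transduced VIP nuclei, and 50.1% in VIP nuclei without AAV. In transduced neurons Trpc6 held 43.5% with Kir2.1 and 30.9% with the mutant. In transduced VIP nuclei the Trpc6 share was 14.2% with Kir2.1 and 28.9% with the mutant, and the summed level per kilobase of exon was 49.3 CPM with Kir2.1 and 75.6 CPM with the mutant. There Trpc6 stood behind Trpc4, Trpc7 and Trpc5 with Kir2.1, and behind Trpc4 alone in the other 4 VIP groups. With Kir2.1 the order of Trpc7 (7.82 ± 4.30 CPM per kb, SD), Trpc5 (7.56 ± 3.605) and Trpc6 (6.996 ± 2.73) lay within the SDs.

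**Figure D1:**
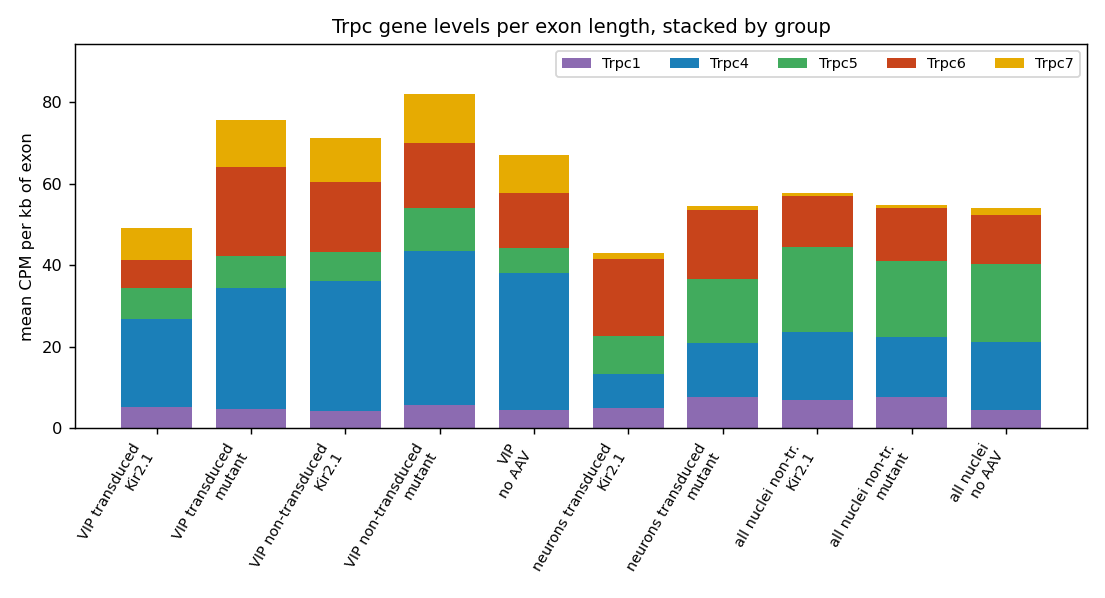
Mean level of each Trpc gene per kilobase of exon (CPM per kb, y axis), stacked, in each of the 10 groups. Trpc4 (blue) is the thickest band in VIP nuclei, Trpc6 (red) in transduced neurons and Trpc5 (green) in all nuclei, and the Trpc6 band is thin in transduced VIP nuclei with Kir2.1, where it holds 14.2% of the sum against 28.9% with the mutant.

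Trpc6, a subunit of diacylglycerol-gated channels, had its lowest mean of the 10 groups in transduced VIP nuclei with Kir2.1. The 10 libraries of transduced VIP nuclei with Kir2.1 had a lowest Trpc6 level of 21.7 CPM, a median of 31.6 CPM and a highest of 71.4 CPM, and the 9 with the mutant a lowest of 61.7 CPM, a median of 117 CPM and a highest of 148.6 CPM. Of these, 9 of the 10 Kir2.1 libraries lay below every mutant library; only library 4, at 71.4 CPM, reached into the mutant range. The means were 35.4 ± 13.8 CPM (SD, n = 10) with Kir2.1 and 111 ± 34.8 CPM (SD, n = 9) with the mutant, a log2 fold change of -1.63 with a standard error (SE) of 0.22 in edgeR, or 3.09-fold lower. This is the contrast that led to the choice of the genes, in which 1.39% of the 21207 genes tested passed an adjusted p of 0.05, and nothing is read from it as a test. Leaving out 1 library at a time gave log2 fold changes of -1.80 to -1.57, and leaving out the libraries that stand apart gave -1.57.

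Some markers of VIP identity differed in the same contrast. The 6 VIP markers summed to 5952 to 11679 CPM (median 8075) in transduced VIP nuclei with Kir2.1 and to 16932 to 18680 CPM (median 17648) with the mutant, with no overlap, and 3 of the 6 (Vip, Crh and Adarb2) fell in the edgeR test. The other 3 did not pass and had positive log2 fold changes in edgeR, Htr3a 0.93 (adjusted p = 0.0655), Calb2 0.56 (adjusted p = 0.275) and Prox1 0.31 (adjusted p = 0.361). The 5 GABAergic markers summed to 737.7 to 1700 CPM with Kir2.1 and to 979.9 to 1839 CPM with the mutant, and 1 of them, Dlx1, fell. Excitatory markers reached 77.5 CPM at most with Kir2.1 and 35 CPM with the mutant. In pools of nuclei, fewer cells of a type and less RNA per cell cannot be told apart, and the part of these markers in the Trpc6 values was not tested.

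The other 4 members differed less in that contrast. Trpc4 had a mean of 175 ± 53.9 CPM (SD, n = 10) with Kir2.1 and 239.6 ± 57.8 CPM (SD, n = 9) with the mutant, a log2 fold change of -0.44 (SE 0.16). The group ranges overlapped, from 110.2 to 278 CPM with Kir2.1 and from 140.9 to 310.5 CPM with the mutant. Trpc7 had means of 30.3 ± 16.7 CPM with Kir2.1 and 44.1 ± 17.5 CPM with the mutant (log2 fold change -0.52, SE 0.30). Kir2.1 library 1 had only 1.36 CPM of Trpc7. Without it the log2 fold change was -0.39, and without the libraries that stand apart it was -0.36. The values of Trpc1 were 41.4 ± 15.6 CPM with Kir2.1 and 37.6 ± 14.8 CPM with the mutant (0.16, SE 0.25). For Trpc5 they were 37.9 ± 18.1 CPM with Kir2.1 and 39.65 ± 17.3 CPM with the mutant (-0.05, SE 0.27). The ranges of each of these 3 genes overlapped between the vectors.

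**Figure D2:**
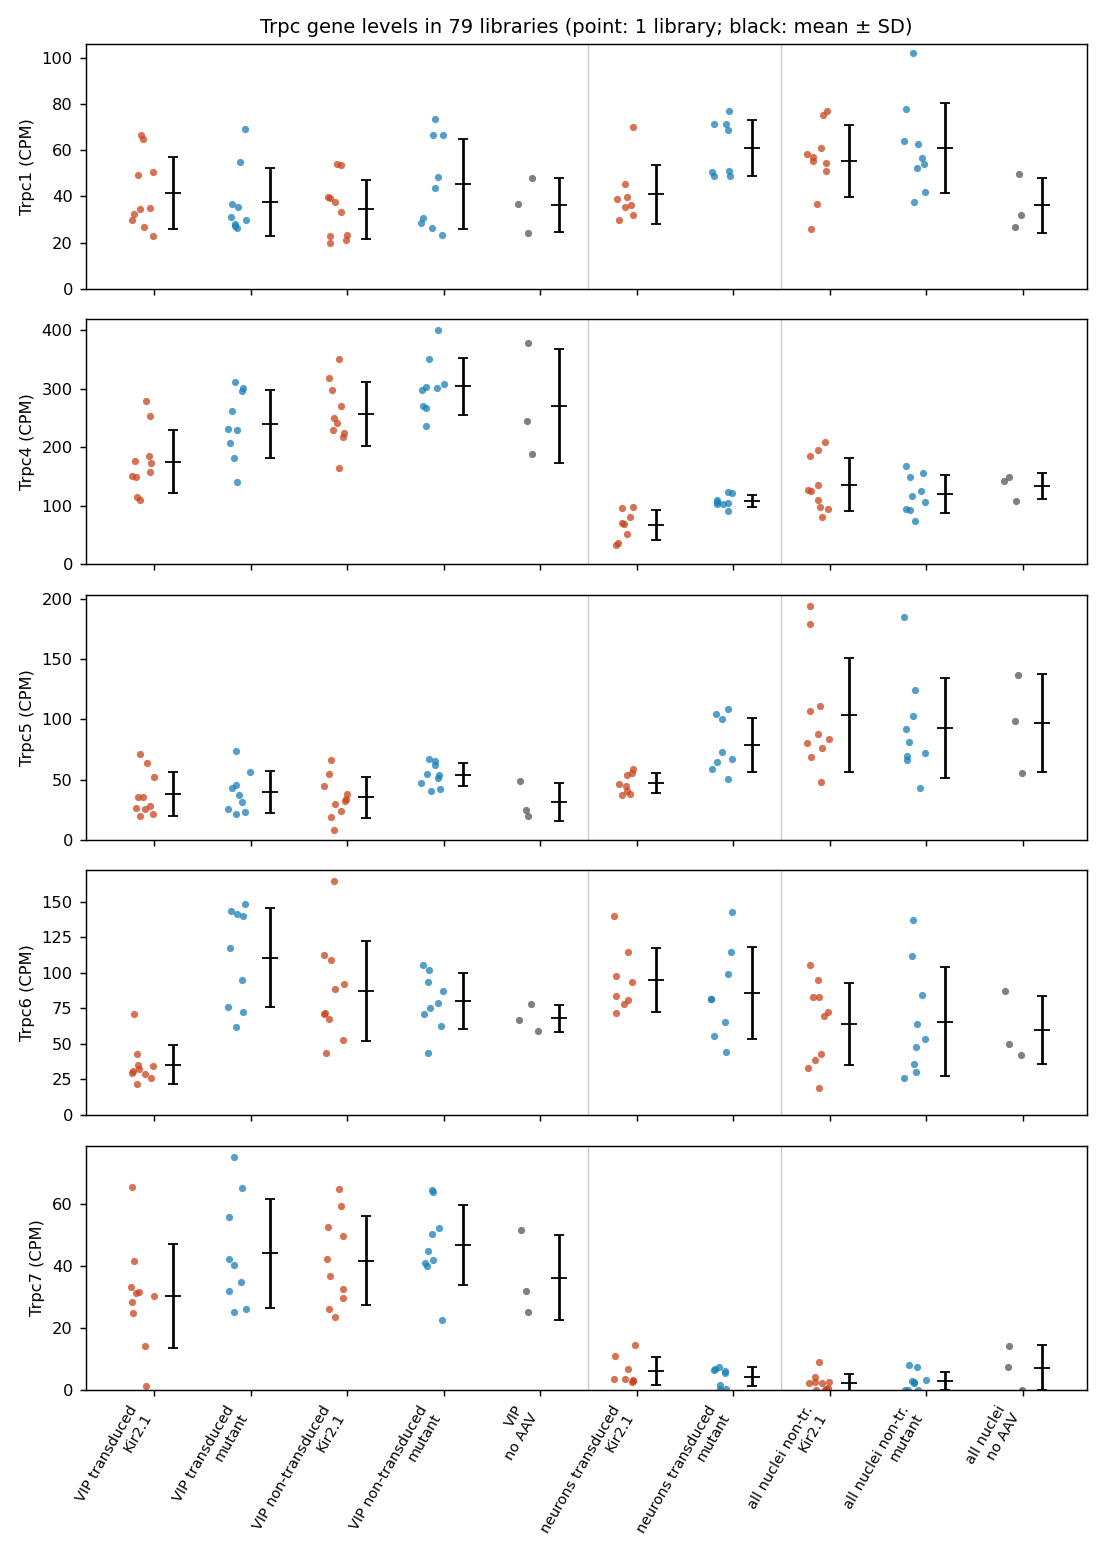
Level of each Trpc gene (CPM, y axis, from 0) in the 79 libraries by group (x axis), with 1 point per library and the mean ± SD in black; red is Kir2.1, blue the mutant and grey no AAV. Trpc6 is low in transduced VIP nuclei with Kir2.1 (21.7 to 71.4 CPM), Trpc4 and Trpc5 are lower with Kir2.1 than with the mutant in transduced neurons, and Trpc7 is low outside VIP nuclei.

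The low Trpc6 level was also seen against non-transduced VIP nuclei that carried the same vector label. Transduced VIP nuclei with Kir2.1 had 21.7 to 71.4 CPM (median 31.6), against 43.7 to 164.9 CPM (median 80.05) in non-transduced VIP nuclei with Kir2.1. Here too 9 of 10 transduced libraries lay below all non-transduced ones. The log2 fold change was -1.29 (SE 0.21). With the mutant, transduced VIP nuclei had a median of 117 CPM and non-transduced VIP nuclei 78.8 CPM, a log2 fold change of 0.50 (SE 0.22), with overlapping ranges. The vector difference in transduced VIP nuclei minus that in non-transduced VIP nuclei was -1.79 (SE 0.31) on the log2 scale. All of these use the libraries that led to the choice of Trpc6, so they are given without a p.

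In the populations that the choice did not use, no difference in Trpc6 between the vectors passed. In transduced neurons the 8 Kir2.1 libraries had 71.9 to 140.2 CPM (median 88.6) and the 8 mutant libraries 44.6 to 142.9 CPM (median 81.5). The Kir2.1 range lay within the mutant range, and the log2 fold change was 0.17 (SE 0.21, edgeR adjusted p = 0.738). In non-transduced VIP nuclei the means were 87.35 ± 35.2 CPM with Kir2.1 (n = 10) and 80.0 ± 19.6 CPM with the mutant (n = 9), a log2 fold change of 0.16 (SE 0.21, edgeR adjusted p = 0.911). In all non-transduced nuclei they were 64.2 ± 29.0 CPM with Kir2.1 and 65.6 ± 38.3 CPM with the mutant (-0.04, SE 0.30, edgeR adjusted p = 0.999). The vector difference of Trpc6 in transduced VIP nuclei minus that in transduced neurons was -1.76 (SE 0.31) on the log2 scale, given as a description.

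A lincRNA gene of unknown function, Gm32014, lies on the opposite strand inside the Trpc6 gene and shares 0 exon bases with it. It had 22174 counts over the 79 libraries, against 36784 for Trpc6. Transduced VIP nuclei with Kir2.1 had 14.8 to 31.9 CPM of Gm32014 (median 25.0) and those with the mutant 30 to 75.3 CPM (median 47.1). Of the 10 Kir2.1 libraries 7 lay below all mutant libraries, and the log2 fold change was -0.97 (SE 0.22). In transduced neurons it was -0.02 (SE 0.20, edgeR adjusted p = 0.973), with means of 63.1 ± 16.6 CPM with Kir2.1 and 64.95 ± 20.6 CPM with the mutant (n = 8 each). Over the 79 libraries Gm32014 had the highest correlation with Trpc6 of 13523 genes compared (Pearson r = 0.62 on the log2 scale), and r was 0.62 after the group means were removed. Within the 8 groups of at least 8 libraries it was 0.19 to 0.85. The library kit does not mark strand, and whether introns were counted is not given in the sources used here, so reads of the pair cannot be separated with certainty.

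**Figure D3:**
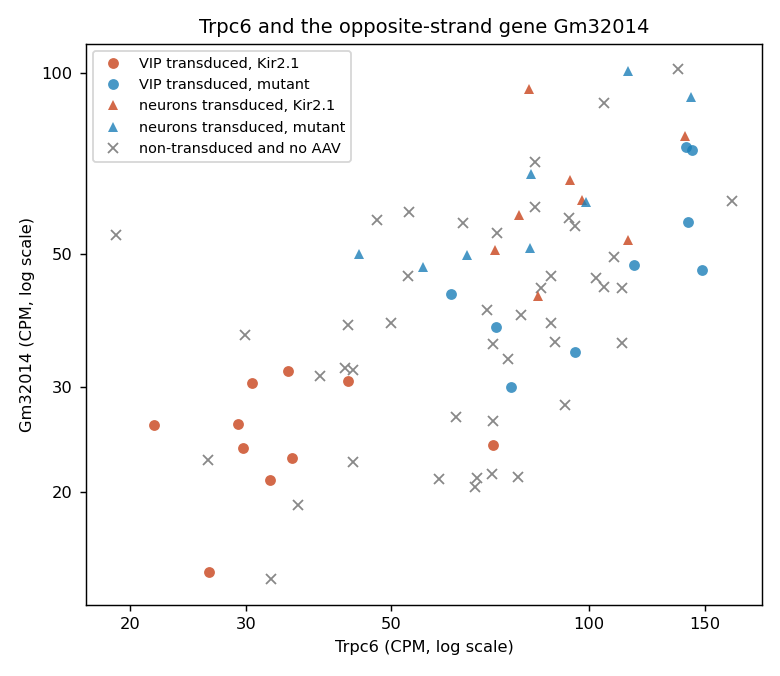
Trpc6 (x axis) against Gm32014 (y axis), both in CPM on log scales, 1 point per library. Transduced VIP nuclei with Kir2.1 (red circles) sit at the lower left, at 21.7 to 71.4 CPM of Trpc6 and 14.8 to 31.9 CPM of Gm32014, whereas transduced neurons with Kir2.1 (red triangles) overlap with their mutant counterparts (blue triangles).

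In transduced neurons it was Trpc5 and Trpc4 that fell with Kir2.1. These 2 of the 5 members passed the edgeR test there, both lower, where 5.63% of the 15949 genes tested passed and 3.45% passed as lower. Trpc5 ranged from 37.2 to 58.9 CPM (median 45.6) in the 8 Kir2.1 libraries and from 50.8 to 108.4 CPM (median 69.96) in the 8 mutant libraries. All 8 Kir2.1 libraries lay below the mutant median, and 5 lay below every mutant library. The means were 46.8 ± 8.35 CPM with Kir2.1 and 78.4 ± 22.45 CPM with the mutant, a log2 fold change of -0.73 (SE 0.19, edgeR adjusted p = 0.0179). The call was lost without mutant library 3 (-0.65, adjusted p = 0.0526 in edgeR) and held without each of the other 15 libraries.

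Trpc4, the close relative of Trpc5, ranged from 32.9 to 98.0 CPM (median 70.1) in Kir2.1 neurons and from 91.6 to 123.6 CPM (median 105) in mutant neurons. Again all 8 Kir2.1 libraries lay below the mutant median, and 6 lay below every mutant library. The means were 66.9 ± 25.0 CPM with Kir2.1 and 108 ± 10.7 CPM with the mutant, a log2 fold change of -0.67 (SE 0.20, edgeR adjusted p = 0.0403). The adjusted p was close to the threshold: it ranged from 0.018 to 0.0833 when 1 library was left out and passed in 5 of 16 such fits, failing without Kir2.1 library 3, 7, 9 or 10 or without any mutant library but library 8. Without Kir2.1 library 10, the only neuron library that stands apart, the log2 fold change was -0.58 (edgeR adjusted p = 0.0622).

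Trpc1, which can assemble with both, had 29.9 to 70.1 CPM (median 37.5) in Kir2.1 neurons and 48.9 to 76.9 CPM (median 59.8) in mutant neurons. Of the 8 Kir2.1 libraries 7 lay below all mutant libraries, and library 6 stood alone at 70.1 CPM. The log2 fold change of -0.56 (SE 0.19) did not pass (edgeR adjusted p = 0.0901). Without Kir2.1 library 6 it was -0.70 and passed (edgeR adjusted p = 0.0192). Trpc7 was barely counted in neurons, at 6.11 ± 4.49 CPM with Kir2.1 and 4.44 ± 2.99 CPM with the mutant (0.48, SE 0.59, edgeR adjusted p = 0.742).

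Interneuron markers also differed between these neuron libraries. The VIP markers summed to 26.4 to 98.5 CPM (median 59.2) in Kir2.1 neurons and to 71.2 to 563.5 CPM (median 211) in mutant neurons, and the GABAergic markers to 48.75 to 152.4 CPM (median 92.8) with Kir2.1 and 110.5 to 281 CPM (median 206) with the mutant. Of the 5 GABAergic markers 2 fell, Gad1 among them, and of the 2 VIP markers that passed the filter 1 (Adarb2) fell, whereas 0 of the 5 excitatory markers passed in either direction. No marker of these 3 lists was at 0 in all libraries of a group. The part of interneuron nuclei in the Trpc4, Trpc5 and Trpc1 values was not tested.

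The difference between the vectors in VIP nuclei minus that in neurons is given as a description, because it contains the contrast behind the choice of these genes. Of all genes 0.316% passed in it. On the log2 scale it was 0.71 (SE 0.35) for Trpc5, 0.75 (SE 0.32) for Trpc1, 0.26 (SE 0.27) for Trpc4 and -0.96 (SE 0.64) for Trpc7. Whether the falls in neurons differ from the values in VIP nuclei is not shown by these values.

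**Figure D4:**
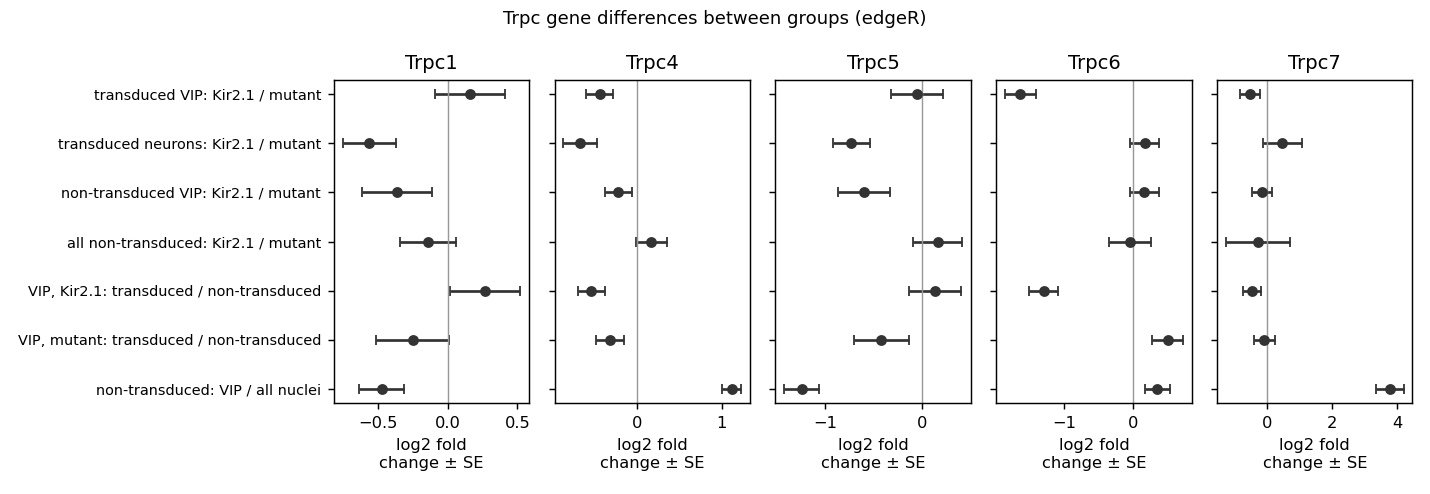
Log2 fold changes with SE (x axis, own scale per gene) of the 5 Trpc genes in 7 comparisons (rows). Trpc6 lies at -1.63 and -1.29 in the rows that compare transduced VIP nuclei with Kir2.1, Trpc4 and Trpc5 lie at -0.67 and -0.73 in transduced neurons, and the VIP against all nuclei row has Trpc7 at 3.78, Trpc4 at 1.12 and Trpc5 at -1.24.

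In nuclei that were not transduced, the Trpc genes did not pass between the vectors. Of 21207 genes in non-transduced VIP nuclei 0.0% passed in edgeR, although 1843 had an unadjusted p under 0.05 and DESeq2 called 14. Trpc5 had 35.1 ± 17.1 CPM with Kir2.1 (n = 10) and 53.8 ± 9.61 CPM with the mutant (n = 9), and 7 of the 10 Kir2.1 libraries lay below all 9 mutant libraries. Its log2 fold change was -0.60 (SE 0.27, edgeR adjusted p = 0.506). Trpc1 (-0.36, SE 0.25), Trpc4 (-0.22, SE 0.16) and Trpc7 (-0.14, SE 0.30) had adjusted p-values of 0.74 to 0.951 in edgeR. In all non-transduced nuclei 0.0% of 21362 genes passed, 1289 had an unadjusted p under 0.05 and DESeq2 called 2. There the 5 members had log2 fold changes between -0.26 (Trpc7, SE 0.99) and 0.17 (Trpc4, SE 0.18), with edgeR adjusted p-values of 0.958 or more.

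Between transduced and non-transduced VIP nuclei of the same vector, the 4 members other than Trpc6 were tested. The transduced libraries are those of the contrast behind the choice of the set, so these p-values are not independent of it. With Kir2.1, where 0.769% of genes passed, Trpc4 had 110.2 to 278 CPM (median 165) in transduced and 164.5 to 351 CPM (median 245) in non-transduced libraries. Of the 10 transduced libraries 5 lay below all non-transduced ones. The log2 fold change was -0.54 (SE 0.16, edgeR adjusted p = 0.0892), short of the threshold. It passed without the libraries that stand apart (-0.64, edgeR adjusted p = 0.0452) and in DESeq2 (-0.55, adjusted p = 0.0365), so the call depends on the setting. Trpc7 (-0.45, SE 0.29), Trpc1 (0.27, SE 0.25) and Trpc5 (0.13, SE 0.27) did not pass, with edgeR adjusted p-values of 0.755 to 0.971. With the mutant, where 0.00943% of genes passed, Trpc4 (-0.32, SE 0.17), Trpc5 (-0.42, SE 0.28), Trpc1 (-0.25, SE 0.26) and Trpc7 (-0.07, SE 0.31) each had an edgeR adjusted p of 1.00. The difference between the vectors in this step, in which 0.401% of genes passed, also contains the contrast behind the choice and is given without a test. It was -0.22 (SE 0.23) for Trpc4.

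VIP nuclei and all nuclei differed in most Trpc genes. Among libraries that were not transduced or had no AAV (22 of VIP nuclei and 22 of all nuclei), 4 of the 5 members passed, 2 higher and 2 lower, in a comparison in which 32.6% of the 22855 genes passed, 12.8% higher and 19.7% lower. All 6 VIP and all 5 GABAergic markers were higher in VIP nuclei, and all 5 oligodendrocyte, all 5 microglial and all 5 excitatory markers were lower. The contrast therefore sets a sorted class against a mixture of neurons and glia.

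Trpc7, the subunit related to Trpc6, ranged from 22.5 to 64.7 CPM (median 42.1) in VIP nuclei and from 0 to 14.4 CPM (median 2.58) in all nuclei. Every VIP library lay above every library of all nuclei, and 6 of those 22 had 0 counts of Trpc7. The means were 43.1 ± 13.5 CPM in VIP nuclei and 3.36 ± 3.78 CPM in all nuclei, a log2 fold change of 3.78 (SE 0.42, edgeR adjusted p = 7.46e-11), or 13.8-fold. The level in all nuclei rests on few reads, with 173 counts in the 10 Kir2.1 libraries, 174 in the 9 mutant libraries and 131 in the 3 without AAV.

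Trpc4 ranged from 164.5 to 399.7 CPM (median 270.0) in VIP nuclei and from 74.2 to 208 CPM (median 124) in all nuclei. Of the VIP libraries 20 of 22 lay above every library of all nuclei. The log2 fold change was 1.12 (SE 0.11, edgeR adjusted p = 5.93e-12), or 2.17-fold. Trpc5, its close relative, went the other way, with 8.01 to 66.8 CPM (median 43.3) in VIP nuclei and 42.6 to 194.5 CPM (median 85.9) in all nuclei. All 22 VIP libraries lay below the median of all nuclei. The log2 fold change was -1.24 (SE 0.18, edgeR adjusted p = 1.61e-07), or 2.37-fold lower.

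Trpc1 was lower in VIP nuclei to a smaller degree, at 39.1 ± 16 CPM in VIP nuclei and 54.99 ± 18.1 CPM in all nuclei (-0.47, SE 0.16, edgeR adjusted p = 0.0136), with overlapping ranges. VIP and all-nuclei means were 34.5 ± 12.8 and 55.2 ± 15.5 CPM with Kir2.1. With the mutant they were 45.3 ± 19.5 and 61.0 ± 19.45 CPM. Without AAV they were alike, at 36.25 ± 11.8 and 36.1 ± 12.0 CPM (n = 3 each), so the Trpc1 difference was seen in the AAV groups only. Trpc6 had 81.7 ± 27.0 CPM in VIP nuclei and 64.2 ± 31.3 CPM in all nuclei, and the difference did not pass (0.35, SE 0.18, edgeR adjusted p = 0.125). That fit treats the libraries as unpaired. With libraries of the same vector and number as a block, the Trpc6 difference passed (edgeR adjusted p = 0.024), so its call depends on the setting. Gm32014 differed in sign from Trpc6 here, with a log2 fold change of -0.49 (SE 0.17, edgeR adjusted p = 0.0183).

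The AAV itself was not followed by a called change in a Trpc gene in nuclei that were not transduced. Against VIP nuclei without AAV, the mean of the 2 non-transduced AAV groups differed by 0.03 (Trpc4, SE 0.22) to 0.47 (Trpc5, SE 0.39) on the log2 scale, with edgeR adjusted p-values of 0.697 to 0.987; 0.00943% of genes passed. Trpc6 had 43.7 to 164.9 CPM in non-transduced VIP nuclei with Kir2.1 and 43.7 to 105.2 CPM with the mutant, against 67.0, 59.0 and 77.95 CPM without AAV. The libraries without AAV lay inside both ranges. In all nuclei, where 0.211% of genes passed, the log2 differences ran from -1.39 (Trpc7, SE 1.19) to 0.69 (Trpc1, SE 0.29), with edgeR adjusted p-values of 0.416 to 0.998. Trpc7 without AAV had 7.42, 0 and 14.4 CPM in its 3 libraries, and leaving out 1 of them gave log2 differences of -1.99 to -0.43, the smallest in size without library 3. With the sex label as a term the Trpc7 difference was -2.65 (edgeR adjusted p = 0.502). That label went against Xist and Y-linked counts in 32 of the 79 libraries, so the term does not stand for sex by expression, which was not fitted. With 3 libraries without AAV, and SEs of 0.22 to 1.19, these comparisons are coarse. The libraries without AAV were all labelled male, so AAV and the sex label are partly confounded here.

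When the 10 groups were ordered by mean level, neighbours were mostly not separated. Only 1 of the 9 neighbouring pairs of Trpc4 had mean ± SD ranges that did not overlap, and 0 of 9 did for each of the other 4 genes. Neighbours in such an order are the closest groups by construction, so this does not show that groups further apart overlap. For Trpc7, all 22 non-transduced VIP libraries lay above all 22 libraries of all nuclei. 

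The genes whose levels followed each member most closely over the 79 libraries were found by the Pearson correlation of log2(CPM + 1) with 13523 genes of at least 5 CPM on average. The libraries share their sorted populations, so r is given first as it stands and then after the group means were removed. Trpc4 was most like Kcnn2, a calcium-activated potassium channel (r = 0.91, 0.59 within groups), Plppr5 (0.88, 0.55) and Cntnap5c (0.88, 0.50). Trpc7 was most like Gm28175 (0.86, 0.32), the secreted signal Wnt5a (0.86, 0.25) and Kcnip1, a subunit that modulates Kv4 potassium channels (0.85, 0.23). Trpc5 was most like the sodium, calcium and potassium exchanger Slc24a2 (0.79, 0.54), the Kv4 channel Kcnd2 (0.79, 0.57) and the phosphatase Phlpp1 (0.77, 0.54). Trpc1 was most like Cpeb4, an RNA-binding regulator of translation (0.70, 0.57), Stxbp5l (0.69, 0.59) and the phosphatase Ssh2 (0.68, 0.55). Trpc6 had no such close match besides Gm32014: the next genes were Bend6 (0.52, 0.35) and Kctd16 (0.51, 0.18). Between pairs of members, r after removing the group means ran from -0.11 (Trpc4 and Trpc7) to 0.41 (Trpc4 and Trpc5).

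The pathway around the channels was followed through lists of the receptors, enzymes and partners that act on them. The lists were chosen with earlier results of these data known. Their counts and medians are therefore a description and not a test of the pathway. In transduced VIP nuclei, where 1.39% of all genes passed, 3 of 18 Gq-coupled receptors fell with Kir2.1 and 0 rose, with a list median of -0.31 against 0.04 for all genes. The noradrenaline receptor Adra1b had 75.7 ± 16.2 CPM with Kir2.1 and 162 ± 46.4 CPM with the mutant (-1.08, SE 0.20, edgeR adjusted p = 0.000413), the orexin receptor Hcrtr2 had 31.2 ± 14.5 CPM with Kir2.1 and 69.35 ± 20.3 CPM with the mutant (-1.15, SE 0.23, edgeR adjusted p = 0.00134), and Adra1a had 100.3 ± 33.9 CPM with Kir2.1 and 189 ± 50.0 CPM with the mutant (-0.90, SE 0.20, edgeR adjusted p = 0.00542). Among 15 diacylglycerol kinases and protein kinase C genes tested, 1 fell, Prkca (-0.81, SE 0.20, edgeR adjusted p = 0.0206), which codes for a kinase that diacylglycerol activates. Of the 14 Gq and phospholipase C genes, 8 IP3 receptor and store-operated entry genes, 12 scaffolds, 12 calcineurin and NFAT genes and 15 other TRP channels tested there, 0 passed. Adra1b and Hcrtr2 were also the 2 of 18 receptors that fell in transduced against non-transduced VIP nuclei with Kir2.1, where 0.769% of all genes passed (-0.94, SE 0.19, and -1.26, SE 0.22), and both were higher in VIP nuclei than in all nuclei (4.78, SE 0.30, and 2.59, SE 0.21).

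In transduced neurons, where 5.63% of all genes passed and 3.45% were lower with Kir2.1, of 14 Gq-coupled receptors tested, 4 fell with Kir2.1 and 1 rose, with a list median of -0.88 against 0.04 for all genes. The histamine receptor Hrh1 fell (-1.19, SE 0.26, edgeR adjusted p = 0.00459), as did the muscarinic receptor Chrm3 (-0.60, SE 0.15, edgeR adjusted p = 0.0157), the cholecystokinin receptor Cckbr (-1.03, SE 0.29, edgeR adjusted p = 0.0299) and the serotonin receptor Htr2a. Homer1, whose product links receptors at the membrane to IP3 receptors and Trpc channels, fell to 93.9 ± 20.5 CPM with Kir2.1, against 209 ± 79.4 CPM with the mutant (-1.13, SE 0.20, edgeR adjusted p = 0.000618), and Homer2 fell too (-0.86, SE 0.22, edgeR adjusted p = 0.0205), as 2 of 11 scaffolds tested. Of 10 Gq and phospholipase C genes only Plcb4 fell (-0.79, SE 0.19, edgeR adjusted p = 0.0132). Prkca (-0.71, SE 0.16) and the diacylglycerol kinase Dgkh (-0.48, SE 0.13) fell and Dgkg rose (0.75, SE 0.16) among 13 genes tested. The calcineurin regulator Rcan2 fell (-0.70, SE 0.16) as 1 of 10, the calcium channel Trpv6 (-2.02, SE 0.54) as 1 of 11 other TRP channels, and 0 of 6 IP3 receptor and store-operated entry genes passed.

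Between VIP nuclei and all nuclei the counts of the lists stand beside a background of 32.6% of all genes, 12.8% higher and 19.7% lower in VIP nuclei. Of 18 Gq-coupled receptors, 5 were higher in VIP nuclei, led by Adra1b, and 8 lower, among them Cckbr (-4.27, SE 0.45, edgeR adjusted p = 1.44e-11). The IP3 receptor Itpr1, which releases calcium from stores, was at 11.4 ± 6.84 CPM in VIP nuclei and 366 ± 47.1 CPM in all nuclei (-5.02, SE 0.22, edgeR adjusted p = 2.95e-25), and 4 of the 8 genes of its list were lower and 0 higher. Among 17 diacylglycerol kinases and protein kinase C genes 2 were higher and 9 lower, with a list median of -0.56 against -0.05 for all genes. Of 12 scaffolds 4 were higher and 3 lower: Homer2 was higher (1.22, SE 0.16, edgeR adjusted p = 1.86e-08) and Homer1 lower (-1.12, SE 0.15, edgeR adjusted p = 1.54e-08) in VIP nuclei. Of 15 Gq and phospholipase C genes 4 were higher and 4 lower, of 12 calcineurin and NFAT genes 3 were higher and 4 lower, and of 17 other TRP channels 1, Pkd2, was higher and 9 were lower.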

How the data were processed

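The authors deposited 1 table of raw counts, genes by 79 libraries, without normalization; 0 columns were left unmapped. STAR 2.5.3a, HOMER 4.9.1, cutadapt 1.18 and mm10 are named in the submitters' processing notes. The annotation, counting settings and strand use are not given in the sources used here. Per the labels' protocols, cDNA was primed with oligo-dT, amplified by 17 PCR cycles and made into libraries by Nextera XT, so PCR copies were counted, with no molecular identifiers. The protocol also names harvest after light; the library labels were followed. Of the identifiers, 181 did not match GENCODE vM21.

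Genes were tested with edgeR 4.0.16 in R 4.3.3 (quasi-likelihood, TMM, filterByExpr with minimum count 10 and minimum total 15), two-sided, with Benjamini-Hochberg adjustment over all genes tested and a threshold of 0.05. SE is the log2 fold change over the square root of F. The 41 VIP libraries, the 22 of all nuclei, the 16 of neurons, the 44 non-transduced and the 35 transduced each had 1 fit, the 44 with vector as a covariate. CPM levels use TMM over all 79. DESeq2 1.42.0, other library sizes, no filter, the sex label, replicate blocks and leaving libraries out were alternatives; leaving out the 6 libraries that stand apart was chosen after seeing the data. Each list names at most 4 genes per comparison, by smallest adjusted p. The members and lists were chosen with earlier results of these data known. The scripts were tested on simulated data. A few genes of the lists and markers are counted but not reported here.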

Additional observations from a re-analysis of the deposited data

Results flagged for a closer look

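Among 40 combinations of member and group tested, 3 had 1 library far from the rest of its group; chance flags about 1 group in 20. Trpc6 in transduced VIP nuclei with Kir2.1 was 71.4 CPM in library 4, and the next highest of the 10 libraries was 42.9 CPM. Trpc1 in transduced neurons with Kir2.1 was 70.1 CPM in library 6, and the next highest of the 8 was 45.3 CPM. Trpc7 in all non-transduced nuclei with Kir2.1 was 9.23 CPM in library 2, and the next highest of the 10 was 4.22 CPM.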

How the results depend on the processing

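Of 386 alternative values of single members that had a test, 349 kept their direction and their side of the threshold. This total pools values that were called with values that were not. The calls in neurons were less stable. Trpc4 passed there in 5 of 16 fits without 1 library and in 4 of 6 other alternatives, and Trpc5 in 15 of 16 and 5 of 6. The fit without Kir2.1 library 10, the only neuron library that stands apart, is in both counts. Library numbers were not treated as pairs, since no label ties them to animals and not every same-numbered pair correlated above 0.1. Across the vectors, same-numbered libraries deviated together with a median r between -0.039 and 0.006, and 1 or 2 libraries of a group matched their own number best. Within a vector the median r was 0.019 to 0.13, against -0.028 to 0.005 for other numbers. Between transduced and non-transduced VIP nuclei 5 of 10 Kir2.1 and 6 of 9 mutant libraries matched their own number best, and in 22 of 22 sets of 1 vector and number the libraries shared a sex by Xist and Y-linked counts. The replicate block was by number alone, across the vectors, for comparisons between vectors and of AAV against no AAV. It was by vector and number for the interactions, within a vector and between VIP and all nuclei. In neurons 0 of 7 same-numbered pairs across the vectors had an r over 0.1. With a block, 526 genes passed in transduced neurons (898 without). Between transduced and non-transduced VIP nuclei with the mutant 5 passed (2 without), and between AAV and no AAV in VIP nuclei 34 (2 without). Under the block by number alone Trpc4 (adjusted p = 0.102) and Trpc5 (0.0915) no longer passed in edgeR in neurons. By vector and number, Trpc4 passed between transduced and non-transduced VIP nuclei with Kir2.1 (edgeR adjusted p = 0.0253). There Trpc6 also passed between VIP and all nuclei (edgeR adjusted p = 0.024). No other member's call changed under either block. Trpc7 between VIP and all nuclei was 4.42 by vector and number, against 3.74 to 3.93 under the other alternatives. By number alone, Trpc7 in all non-transduced nuclei was 0.81 and Trpc5 in all nuclei with against without AAV was -0.45. DESeq2 called 1388 genes in transduced neurons, 14 in non-transduced VIP nuclei, 2 in all non-transduced nuclei, 103 for the interaction of vector and population (58 in edgeR), 72 for AAV in VIP nuclei and 382 for AAV in all nuclei (45 in edgeR). DESeq2 also called Trpc1 in neurons (adjusted p = 0.0393) and Trpc4 between transduced and non-transduced VIP nuclei with Kir2.1 (0.0365). Without the filter on low counts, 719 genes passed for the interaction of vector and transduction (85 with it), 274 for that of vector and population, 214 for AAV in VIP nuclei and 289 for AAV in all nuclei. With the sex label as a term 6 genes passed for AAV in VIP nuclei. Leaving out 1 library without AAV gave 0 to 4 genes for VIP nuclei and 23 to 59 for all nuclei, the lowest without library 2. The cause of these shifts was not tested.

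None of the members' values whose direction turned passed the edgeR or DESeq2 test in either setting. Trpc6 in all non-transduced nuclei was 0.07 with the sex label as a term, and Trpc1 between transduced and non-transduced VIP nuclei with Kir2.1 was -0.01 without the libraries that stand apart. For AAV in all nuclei, Trpc4 was 0.13 with the sex label, and Trpc5 was -0.16 with the sex label, -0.01 with RLE library sizes and with DESeq2, and -0.00 without the filter. Leaving out 1 library without AAV gave -0.14 to 0.35 for Trpc1 and -0.18 to 0.35 for Trpc4 in VIP nuclei, and -0.21 to 0.02 for Trpc4, -0.28 to 0.33 for Trpc5 and -0.08 to 0.48 for Trpc6 in all nuclei. In all nuclei 6 libraries had 0 counts of Trpc7.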
